A study of Mus musculus with 35 samples.

Results

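The genes examined were 4 of the NF-κB subunit genes, Nfkb1, Nfkb2, Rela and Relb, together with Bcl3, and they were followed across 35 chromatin immunoprecipitation sequencing libraries of mouse macrophages. Each gene was represented by a fixed window of the mm9 genome. The windows were chr3:135230000-135375000 for Nfkb1, chr19:46360000-46395000 for Nfkb2, chr19:5625000-5660000 for Rela, chr7:20180000-20230000 for Relb and chr7:20380000-20420000 for Bcl3. Every listed region up to 100 kb wide that overlapped a window by at least 1 bp was taken, which gave 300 regions out of 233211 up to that width in all lists. The windows held 62 regions at Nfkb1, 52 at Nfkb2, 34 at Rela, 53 at Relb and 99 at Bcl3. Another 92 regions wider than 100 kb crossed a window.

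The cells were primary macrophages (BMMs) grown from the bone marrow of female wild type C57BL/6 mice aged 8-12 weeks, unstimulated or stimulated with lipopolysaccharide (LPS), a cell wall component of Gram-negative bacteria. All groups shared strain and genotype, and no group carried a mutation or transgene. The NF-κB subunit p50 was profiled in 3 unstimulated libraries and in 4 libraries at 60 min of LPS. The subunit p65 was profiled once without LPS and in 2 libraries each at 60 min and at 120 min, and the stress-induced transcription factor ATF3 had 3 libraries at 240 min with no unstimulated counterpart. For acetylated histone H4 (H4ac), found in active chromatin, there were 2 libraries without LPS and 2 at each of 60, 120 and 240 min. RNA polymerase II (Pol II) was profiled once without LPS, in 2 libraries at 60 min, 1 at 120 min, 2 at 240 min and 1 at 360 min. Histone H3 trimethylated at lysine 27 (H3K27me3), which Polycomb complexes deposit, had 1 library without LPS and 1 for each of 120, 240 and 480 min of LPS. The title of a last H3K27me3 library, labelled 480 min, gives 60 min of LPS and a delay of 7 h. Nothing in the labels says that libraries of a group came from separate mice or cultures, and p-values therefore describe the spread between these libraries alone, which may be technical. The lists hold no expression values, and macrophage marker genes were not examined.

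NF-κB is a family of dimeric transcription factors held in the cytoplasm by IκB proteins until a signal such as LPS, acting through Toll-like receptor 4, leads to IκB degradation. Nfkb1 encodes the precursor p105 and its product p50, and Nfkb2 encodes p100 and its product p52. Neither p50 nor p52 has a transactivation domain of its own. Rela encodes p65 and Relb encodes RelB, both of which carry such a domain. Bcl3 encodes an atypical nuclear IκB protein that binds p50 and p52 homodimers on DNA. Several of these genes are textbook NF-κB targets themselves, and their binding sites are called κB sites.

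Promoter sequences were available for 3 of the 5 members, Nfkb2, Bcl3 and Rela, in RefSeq (build GRCm38.p6). Each window runs from 250 bases before to 50 bases after an annotated start site. They are shown because p50 regions were listed in the Nfkb2 and Bcl3 windows in every unstimulated p50 list and in none of them at Rela. Capitals mark matches to the κB consensus on either strand. The first Nfkb2 start site lies at chr19:46304487-46304786 (+), the second at chr19:46305445-46305744 (+), Bcl3 at chr7:19822706-19823005 (-) and Rela at chr19:5637291-5637590 (+).
Nfkb2 start site 1: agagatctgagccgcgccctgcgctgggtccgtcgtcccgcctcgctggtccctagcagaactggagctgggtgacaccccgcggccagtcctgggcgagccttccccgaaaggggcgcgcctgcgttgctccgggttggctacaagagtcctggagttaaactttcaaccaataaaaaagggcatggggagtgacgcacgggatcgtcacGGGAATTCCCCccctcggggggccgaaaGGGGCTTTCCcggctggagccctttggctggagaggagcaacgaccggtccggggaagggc
Nfkb2 start site 2: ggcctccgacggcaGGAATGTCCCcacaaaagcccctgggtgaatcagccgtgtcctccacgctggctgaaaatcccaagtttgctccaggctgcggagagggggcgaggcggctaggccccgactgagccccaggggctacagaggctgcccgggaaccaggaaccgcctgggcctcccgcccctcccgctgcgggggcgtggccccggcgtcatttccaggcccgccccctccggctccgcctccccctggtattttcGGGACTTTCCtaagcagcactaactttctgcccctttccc
Bcl3: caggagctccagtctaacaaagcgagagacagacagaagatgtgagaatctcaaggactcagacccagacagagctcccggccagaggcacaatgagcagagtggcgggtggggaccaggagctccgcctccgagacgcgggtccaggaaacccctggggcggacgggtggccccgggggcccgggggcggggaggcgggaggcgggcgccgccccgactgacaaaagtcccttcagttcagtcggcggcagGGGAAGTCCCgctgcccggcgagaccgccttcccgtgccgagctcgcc
Rela: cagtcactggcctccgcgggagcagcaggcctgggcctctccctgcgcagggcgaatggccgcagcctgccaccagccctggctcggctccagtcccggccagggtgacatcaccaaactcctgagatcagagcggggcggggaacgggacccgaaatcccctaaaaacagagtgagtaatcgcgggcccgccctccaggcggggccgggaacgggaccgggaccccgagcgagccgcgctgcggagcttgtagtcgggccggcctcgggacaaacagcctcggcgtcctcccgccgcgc

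The first Nfkb2 window held GGGAATTCCC at bases 212 to 221, an overlapping match 1 base further on, and GGGGCTTTCC at bases 240 to 249. The second held GGAATGTCCC at bases 15 to 24, which matches on the opposite strand, and GGGACTTTCC at bases 261 to 270. The third Nfkb2 start site, which overlaps the second window, held that last match only. Bcl3 held GGGAAGTCCC at bases 253 to 262. The Rela window held 0 consensus matches and 3 matches to the looser pattern GGGNNNNNCC, of which every consensus match is also an instance. Across all 32851 promoter windows of this length, 8.46% held at least 1 consensus match, 1.22% held 2 or more, and 50.8% held the looser pattern. The matches describe letters only. The deposited regions are on mm9 and the sequences on GRCm38, so the regions could not be placed on them here.

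Each library came with 1 list of regions, each with a score from the authors that ranks it within its list. Lists held 255 to 28522 regions, and read depth is unknown. A region missing from a list is therefore described only as not listed. Ranks below are given as a place in a library's own list, which shows no change between lists. Regions are nested, and a width limit decides how much of a window counts as covered. Values for regions up to 10 kb are therefore given beside those up to 100 kb where they differ. Several libraries stood apart. In LPS D, 1 of the p50 libraries with LPS, 324 regions were listed, against 1118 to 1378 in LPS A, B and C, and none of the 5 windows had a region. Of the regions up to 10 kb in p65 60 min A, p65 120 min C, ATF3 B and ATF3 C, 3.46%, 8.07%, 8.89% and 8.87% touched H4ac regions. In the other p65 lists that share was 64.6% to 81.3%, in ATF3 A 67.9% and in the p50 lists 26.3% to 69.3%. In the titles, the p50 libraries of letters A and C share 1 date in both conditions and those of letter D another. The unstimulated Pol II, H3K27me3 and p65 libraries each have a date that no LPS library of the same target shares. Date and LPS therefore cannot be told apart for Pol II, H3K27me3 or p65.

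After LPS, p50 regions recurred at 4 of the 5 genes, and at 3 of these they recurred without LPS as well. At least 3 of the 4 LPS lists had a region in the Nfkb1, Nfkb2, Relb and Bcl3 windows, and at least 2 of the 3 unstimulated lists had one at Nfkb2, Relb and Bcl3. Of 52767 tiles of 50 kb across the genome, 0.885% met the first condition and 0.373% the second. The windows are 35 to 145 kb long and were placed on genes, which the tiles were not, so the shares are a scale and not a test. Rela had a p50 region in LPS A only. Joining p50 regions up to 1 kb that overlapped gave 10 p50 sites, a definition made after seeing the data. There were 3 at Nfkb1, 2 at Nfkb2, 1 each at Rela and Relb and 3 at Bcl3.

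Nfkb1, the p105 and p50 gene, held the only p50 region called gained with LPS among the members. Gained means listed by 3 or more LPS libraries and by none without LPS, and lost means listed by 2 or more libraries without LPS and by none with it. Of 8 merged p50 regions in the 5 windows 1 was gained and 0 were lost, where 9.57% of all 2467 merged p50 regions were gained and 0.689% lost, so the members' share lay near the background. The rule is a count of lists and carries no p-value. The gained region, chr3:135331931-135333730, was listed by LPS A, B and C. Its core, the second p50 site at chr3:135333581-135333730, was 150 bp wide and ranked 223 of 1378, 244 of 1118 and 114 of 1253 in those lists. In LPS C a weak 1.8 kb region, ranked 1212, surrounded the core. The call ended when at least 50% of the merged region had to be covered, and with regions of every width. Within the shared date of letters A and C, both LPS lists and neither unstimulated list held it, and within letter D neither list did.

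The third Nfkb1 p50 site, chr3:135354341-135354610, lay 20.8 kb from the second. LPS A and C ranked it 125 of 1378 and 63 of 1253, and unstimulated A listed 100 bp of it at rank 362 of 424. LPS B and D did not list it. The first site, chr3:135265161-135265260, was listed by LPS B alone at rank 713 of 1118. Of the 3 sites, the second was thus in 3 LPS lists, the third in 2 and the first in 1.

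**Figure D1:**
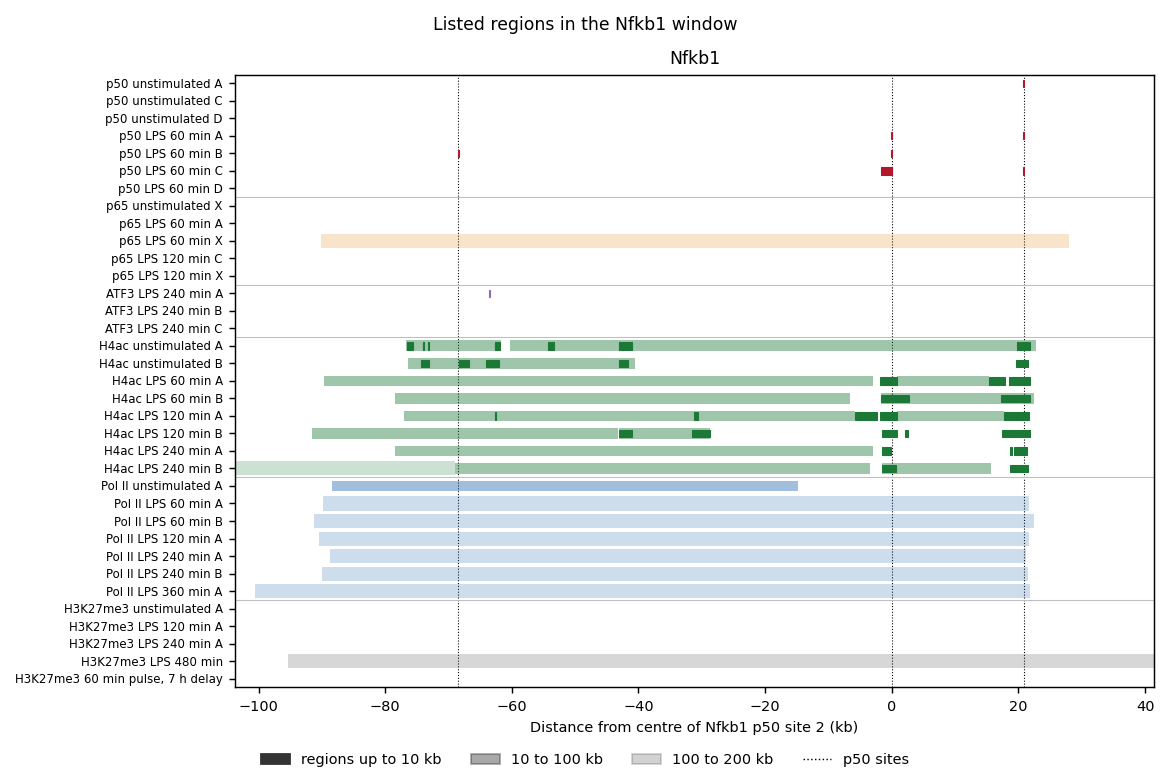
Regions up to 200 kb wide in the Nfkb1 window (x axis, distance in kb from the centre of the second p50 site) in each of the 35 libraries (rows), with darker bars for narrower regions and dotted lines at the 3 p50 sites. Narrow H4ac bars cover the second site in 5 LPS libraries and in no unstimulated one, the bar of 240 min A ending just before it, and the Pol II bars of all 6 LPS libraries reach the third site while the unstimulated one ends earlier.

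A narrow H4ac region was also gained at this place. With regions up to 10 kb, all 6 LPS lists and neither unstimulated list held the merged H4ac region chr3:135331741-135334450, so it was gained at 60, 120 and 240 min. It spans the gained p50 site. In 5 of the 6 lists the H4ac region itself covered the p50 core, with widths of 2240 to 2700 bp. Its ranks stood at 2.97% and 7.08% of the list at 60 min, 8.94% and 7.25% at 120 min and 23.8% at 240 min in letter B. In 240 min A the region, 1.3 kb wide, ended before the core. The limit matters here. Unstimulated A listed a 63.75 kb region, ranked at 81.7% of its list, across the same place. With regions up to 100 kb, the H4ac regions of the window merged into 1 region of 114.3 kb, chr3:135242091-135356390. Both unstimulated lists and all 6 LPS lists held it, so no gain was called. Leaving out unstimulated A did not change this.

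Further along, at the third p50 site, H4ac regions were listed in all 8 libraries. They were 2 kb and 2.1 kb wide without LPS, at 20.04% and 21.0% of their lists, and 2.09 to 4.61 kb wide with LPS. The LPS regions stood at 0.549% and 2.16% at 60 min, 5.60% and 5.68% at 120 min, and 10.2% and 7.61% at 240 min. Other narrow H4ac regions of Nfkb1 went in both directions. A second region, chr3:135302071-135304930, was gained at 120 min only. The region chr3:135259291-135260620 was lost at all 3 times, and chr3:135269541-135271770 and chr3:135290551-135292670 were lost at 60 and 240 min. These losses depend on the 10 kb limit. At the times concerned, every LPS list held wider H4ac regions over these places, 46.55 to 183.86 kb wide at the first.

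Each Pol II library listed 1 block of 73.68 to 122.44 kb at Nfkb1, and 360 min A also listed a 2242 kb region across it, at rank 2844 of 2948. The unstimulated library listed chr3:135245221-135318900, 73.68 kb wide, at rank 2837 of 7436. With LPS the blocks were 111.47 and 113.73 kb wide at 60 min, 112.2 kb at 120 min, 110.02 and 111.46 kb at 240 min and 122.44 kb at 360 min. All 6 LPS blocks were wider than the 1 unstimulated block, and how often this order occurs among all Pol II regions was not determined. One end of each LPS block lay 0.445 to 1.715 kb from the centre of the third p50 site. Their ranks were 196 of 5519 and 289 of 6061 at 60 min, 470 of 4559 at 120 min, 777 of 5144 and 1063 of 7728 at 240 min, and 1473 of 2948 at 360 min.

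These LPS blocks exceed 100 kb, which turns the direction of the cover. Up to 100 kb, Pol II covered 73.68 kb of the window without LPS and 0 kb in all 6 LPS libraries, a difference of -73.68 kb. Up to 200 kb, a limit added after seeing the data, the difference was 39.87 kb. The single Pol II region of the members called lost up to 100 kb is this one, and its loss comes from the limit. There is 1 unstimulated library, so no test was run.

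ATF3 was listed at Nfkb1 in 1 of 3 libraries. ATF3 240 min A held a 120 bp region, chr3:135270091-135270210, at rank 1044 of 3954. Neither ATF3 B nor ATF3 C, which stood apart, had a region in any of the 5 windows. Of the 50 kb tiles, 11.0% had an ATF3 region in at least 1 list, and 1 of the 5 windows did.

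Nfkb2, the p100 and p52 gene, had a p50 site in all unstimulated lists and was the only one with a listed p65 region up to 100 kb. Its first p50 site, chr19:46379041-46379300, was listed by all 3 unstimulated libraries at rank 20 of 424 in A, 13 of 447 in C and 19 of 354 in D. With LPS it ranked 4 of 1378 in A, 120 of 1118 in B and 8 of 1253 in C. LPS D did not list it. The site was thus in 6 of 7 p50 lists, and in each of the 6 it ranked above every other p50 site of the 5 windows. A second site, chr19:46379841-46380040, 0.77 kb away, was listed on its own by LPS B at rank 792 of 1118.

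Of 5 p65 lists, 2 held the first site and none was unstimulated. The p65 library at 60 min labelled X listed 0.54 kb at rank 323 of 782, and 120 min C listed 0.36 kb at rank 184 of 2110. Without the libraries that stood apart, 60 min X alone held it. The libraries 60 min A and 120 min X did not list it. Among the 50 kb tiles, 7.80% had a p65 region in at least 1 of the 5 lists.

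Narrow H4ac regions lay over the first Nfkb2 site in all 8 libraries. Their places in the lists were 30.7% and 40.5% without LPS, 0.836% and 1.82% at 60 min, 2.11% and 7.68% at 120 min, and 24.0% and 39.4% at 240 min. Both 60 min regions thus stood nearer the top of their lists than either unstimulated region, and at 240 min the letter B region stood between the unstimulated places and the letter A region above both. Pol II over the same site stood at 67.7% of its list without LPS, 3.08% and 3.79% at 60 min, 6.08% at 120 min, 31.5% and 38.9% at 240 min and 62.9% at 360 min. Pol II cover of the window went the other way up to 100 kb. It was 17.16 kb without LPS, where a 93.96 kb region was listed at rank 6317 of 7436, and 7.19 to 14.15 kb with LPS. The mean difference of -5.345 kb turned to 5.57 kb up to 10 kb and was -4.32 kb with every width, with no test.

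H4ac covered 1.76 and 1.54 kb of the Nfkb2 window without LPS. With LPS it covered 5.27 and 17.53 kb at 60 min, 15.97 and 17.52 kb at 120 min, and 17.96 and 17.89 kb at 240 min. Every LPS value was above both unstimulated ones, in letter A as in letter B, whose libraries share a date within a letter except 240 min A. The means were 15.4 ± 4.99 kb (SD, n = 6) and 1.65 ± 0.156 kb (SD, n = 2), with an exact two-sided permutation p of 0.0714, the smallest that 6 against 2 libraries allow. With the 10 kb limit the means were 3.50 ± 1.16 and 1.65 ± 0.156 kb, with the same exact permutation p of 0.0714. With regions of every width the difference was -0.0587 kb, and unstimulated A had a 174.36 kb region that crossed the window.

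H3K27me3 regions lay toward the end of the Nfkb2 window in all 5 libraries, the only one of the 5 windows with a region up to 100 kb in every H3K27me3 list. Of the 50 kb tiles, 3.05% had one in all 5 lists. The unstimulated region was 4.55 kb wide and began 11.07 kb from the centre of the first p50 site. With LPS the regions were 12.4 kb wide at 120 min, 12.66 kb at 240 min, 14.93 kb at 480 min and 14.31 kb in the library with the 7 h delay. They began 9.96, 9.47, 7.46 and 8.20 kb from the site and ran 6300 to 6680 bp past the window, within which the unstimulated region ended. Each LPS region was thus wider than the unstimulated one, with 1 library each, no date shared with the unstimulated library and no test. By RefSeq order the protein-coding neighbours of Nfkb2 are Gbf1 and Psd, and which gene lies under these regions was not determined.

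**Figure D2:**
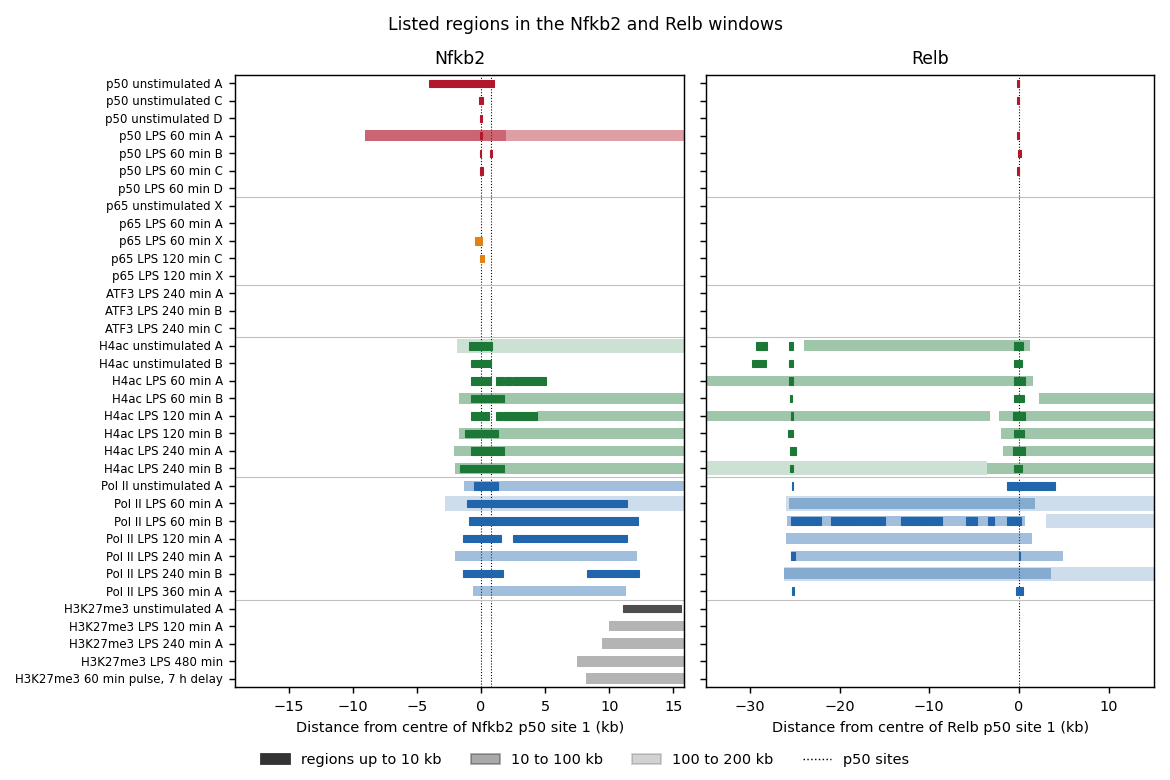
Regions up to 200 kb wide in the Nfkb2 and Relb windows (x axes, distance in kb from the first p50 site of each gene) in each of the 35 libraries (rows), with darker bars for narrower regions and dotted lines at p50 sites. H3K27me3 bars lie toward the right end of the Nfkb2 window in all 5 libraries, and Pol II bars span 26.55 to 30.40 kb of the Relb window in 5 LPS libraries.

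Relb, which encodes RelB, the usual partner of p52, had 1 p50 site, chr7:20214721-20215080. Unstimulated A and C listed it at rank 56 of 424 and 107 of 447. LPS A, B and C listed it at rank 248 of 1378, 653 of 1118 and 60 of 1253. The D libraries of both conditions did not list it. The p50 regions covered 0.093 ± 0.081 kb without (SD, n = 3) and 0.152 ± 0.123 kb with LPS (SD, n = 4), a difference within the spread (exact two-sided permutation p = 0.571).

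Narrow H4ac regions over this site were in all 8 lists. They stood at 20.6% and 46.4% of their lists without LPS, at 1.47% and 1.66% at 60 min, 4.53% and 8.23% at 120 min, and 11.9% in both libraries at 240 min. All 6 LPS places were nearer the top than both unstimulated ones. A separate H4ac region, chr7:20185131-20186790, was in both unstimulated lists and in no LPS list up to 10 kb, so it was lost at all 3 times. It stood at 66.4% and 93.1% of the unstimulated lists. Wider H4ac regions of 52.67, 765.77, 47.88 and 126.13 kb crossed it in 60 min A, 60 min B, 120 min A and 240 min B. In 120 min B and 240 min A no H4ac region was listed there.

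Among Pol II regions up to 100 kb, 5 of 6 LPS libraries had a block across much of the Relb window, and the unstimulated and 360 min libraries did not. The blocks were 27.47 and 26.55 kb wide at 60 min, 27.48 kb at 120 min, and 30.40 and 29.78 kb at 240 min. The widest region up to that limit was 5.37 kb without LPS, at rank 6877 of 7436, and 0.80 kb at 360 min, at rank 2268 of 2948. Wider regions crossed the window in both, 834.98 kb wide at rank 3795 without LPS and 280.32 kb wide at rank 2533 at 360 min. One end of each block lay 0.69 to 4.96 kb from the centre of the p50 site. Pol II cover up to 100 kb was 5.55 kb without LPS and 27.47, 26.55, 27.48, 30.4, 29.78 and 1.05 kb with LPS in the same order, a mean difference of 18.2 kb. That difference was -2.38 kb up to 10 kb, where the blocks no longer count, and -4.83 kb with every width, where the unstimulated library covered the whole window. The list at 60 min B also divided its block into 11 narrower regions.

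H4ac cover of Relb depended on the limit. Up to 100 kb it was 26.83 and 2.82 kb without LPS, and 14.32 to 48.96 kb with LPS, with means of 14.8 ± 17.0 (SD, n = 2) and 25.6 ± 13.9 kb (SD, n = 6). The groups overlap (exact two-sided permutation p = 0.357), and without unstimulated B the difference of 10.8 kb turned to -1.20 kb. Under the 10 kb limit the means were 2.73 and 1.58 kb, with every LPS value below both unstimulated ones (exact permutation p = 0.0714).

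Rela, which encodes p65, had a p50 region in 1 list only, against 4 to 6 lists at each of the other genes. LPS A listed chr19:5637271-5637520 at rank 987 of 1378. No p65 or ATF3 list held a region up to 100 kb in the window. A narrow H4ac region lay at this place in 1 unstimulated and 5 LPS libraries, and the merged region chr19:5636741-5639220 was in all 8 lists. The unstimulated A region stood at 7.31% of its list and the LPS ones at 11.8% to 56.3%. A second H4ac region, chr19:5648241-5649880, was in both unstimulated lists and in no LPS list up to 10 kb, so it was lost at 60, 120 and 240 min. It stood at 67.1% and 91.3% of the unstimulated lists. Wider H4ac regions, the narrowest of 23.7 kb, crossed it in 60 min B and in both libraries at 120 and 240 min. In 60 min A no H4ac region was listed there.

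Regions of H4ac up to 100 kb covered 23.88 and 24.05 kb of the Rela window without LPS. With LPS it covered 14.85 and 0.67 kb at 60 min, 20.87 and 1.47 kb at 120 min, and the whole window and 24.05 kb at 240 min. The letter B libraries at 60 and 120 min were the lowest, and both also listed a wider region, of 428.22 and 427.32 kb, across the whole window. With every width the difference was -0.153 kb. The groups overlap (exact two-sided permutation p = 0.571). With regions up to 10 kb, cover was 3.41 ± 1.19 kb without (SD, n = 2) and 1.56 ± 0.566 kb with LPS (SD, n = 6), with every LPS value lower (exact permutation p = 0.0714). In the better-scored 50% of each list the difference was 3.88 kb, against -7.81 kb with whole lists.

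Pol II cover of Rela was uneven between libraries of 1 time. Up to 100 kb it was 12.92 kb without LPS, 22.86 and 3.03 kb at 60 min, 23.24 kb at 120 min, 0.93 and 1.52 kb at 240 min, and 0 kb at 360 min. Wider Pol II regions covered the whole window in the unstimulated library, both 240 min libraries and the 360 min one. At 240 min these were 203.38 and 165.86 kb wide and at 360 min 306.95 kb. The 60 min libraries differed by more than the mean difference of -4.32 kb. A narrow Pol II region at chr19:5648091-5651120 was in all libraries but that at 360 min.

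Bcl3, the nuclear IκB protein that acts with p50 and p52, had 3 p50 sites and the most regions of the 5 windows. The third site, chr7:20409501-20409820, was in all 3 unstimulated lists, at rank 62 of 424 in A, 39 of 447 in C and 78 of 354 in D. LPS A, B and C ranked it 75 of 1378, 155 of 1118 and 27 of 1253. The first site, chr7:20402711-20403000, was in unstimulated A and C at rank 152 of 424 and 55 of 447, and in LPS A, B and C at rank 141, 647 and 317.

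Between them lay the second site, chr7:20407881-20408180, 1.63 kb from the third. LPS A and B listed it as a narrow region of its own, at rank 190 of 1378 and 932 of 1118. In unstimulated A and C, a region of 1.76 or 1.83 kb joined the second site to the third. Listing of the second site therefore did not separate the conditions. Cover by p50 was 1.89, 1.95 and 0.32 kb without LPS and 2.07, 3.23, 0.32 and 0 kb with LPS, which overlap (exact two-sided permutation p = 1).

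**Figure D3:**
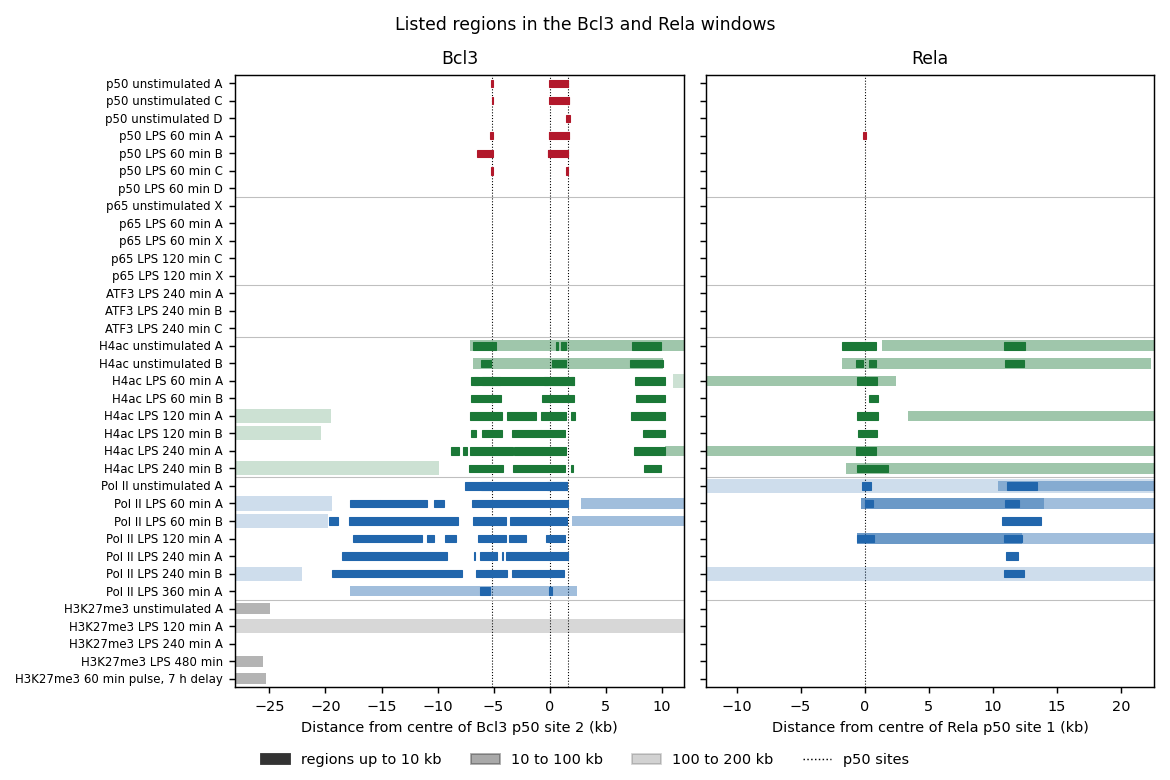
Regions up to 200 kb wide in the Bcl3 and Rela windows (x axes, distance in kb from the second p50 site of Bcl3 and from the p50 site of Rela) in each of the 35 libraries (rows), with darker bars for narrower regions and dotted lines at p50 sites. In the Bcl3 window the unstimulated Pol II bars begin at chr7:20400501, and Pol II bars further left occur in LPS libraries only. A p50 bar at Rela occurs in LPS A only.

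At the first Bcl3 site, narrow H4ac regions stood at 39.1% and 31.8% of their lists without LPS. With LPS they stood at 7.63% and 1.57% at 60 min, 1.79% and 1.53% at 120 min, and 2.65% and 2.26% at 240 min. All 6 LPS places were nearer the top than both unstimulated ones, at 240 min as at 60 min. Over the second site, no unstimulated list and all 6 LPS lists had an H4ac region up to 10 kb. The unstimulated lists had wider regions across it, of 17.05 and 16.97 kb, at 23.1% and 20.4% of their lists. In unstimulated B a narrow region began at 20408231, just past the site, which ends at 20408180. At the third site the unstimulated regions stood high already, at 6.20% and 3.65%, and only the 60 min LPS lists had a narrow region that touched it, at 8.75% and 8.28%. That contrast rests on few bases. The site starts at 20409501, and both unstimulated regions ended at 20409510. The nearest narrow regions at 120 and 240 min ended at 20409410 to 20409480.

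The direction of H4ac cover at Bcl3 turned with the width limit. Up to 10 kb it was 5.27 and 5.00 kb without LPS and 11.85, 8.01, 10.94, 9.01, 12.33 and 9.30 kb with LPS in order of time and letter. Every LPS value was above both unstimulated ones (10.2 ± 1.72 against 5.13 ± 0.191 kb, exact permutation p = 0.0714). Up to 100 kb it was 10.5 ± 2.21 kb with and 18.0 ± 1.49 kb without LPS, with every LPS value below both unstimulated ones and the same exact permutation p of 0.0714. The unstimulated lists each held a region of about 17 kb, 17.05 kb in A and 16.97 kb in B, that joined the narrow ones.

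Up to 100 kb, Pol II covered 9.10 kb of the Bcl3 window without LPS. It covered 25.51 and 28.48 kb at 60 min, 13.44 kb at 120 min, 16.67 and 18.94 kb at 240 min and 20.27 kb at 360 min. Up to this limit all 6 LPS libraries were above the unstimulated one, with a mean difference of 11.4 kb and no test. The direction stayed with regions up to 10 kb, where the difference was 5.08 kb, and with regions of every width, where it was 2.76 kb. It turned to -0.025 kb with regions up to 1 kb. The narrow Pol II region chr7:20388361-20400200 was in the lists at 60, 120 and 240 min and not in the unstimulated one, which made it the 1 gained Pol II region up to 10 kb. This gain depends on the limit. The unstimulated list held a region of 834.98 kb across the same place, at rank 3795 of 7436. With regions of every width 0 Pol II regions were gained. At 360 min a 20.27 kb region covered most of the gained region. The gained region lay on the side of the p50 sites toward lower coordinates.

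H3K27me3 regions up to 100 kb touched the edge of the Bcl3 window in 3 of 5 lists, the unstimulated one, 480 min and the library with the 7 h delay. These covered 3.12, 2.46 and 2.74 kb. The lists at 120 and 240 min held wider regions, of 109.29 and 530.82 kb, across the whole window. No H3K27me3 region up to 100 kb was listed in the Nfkb1, Rela or Relb windows, so 8 of 25 pairs of library and gene had one, and 20 did with every width.

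Across the 5 genes, H4ac was in every list and Pol II in nearly every one. All 8 H4ac lists had a region up to 100 kb in each of the 5 windows, which 12.3% of the 50 kb tiles met. At least 6 of 7 Pol II lists had one at Nfkb2, Rela, Relb and Bcl3, and 3.15% of tiles met that condition. Nfkb1 failed it only because its LPS blocks exceed 100 kb.

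Called changes of the marks were few and varied with the limit. For these marks, gained at a time means listed by all libraries of that time and by none without LPS, and lost means the converse. Of 7 merged H4ac regions up to 100 kb in the windows 0 were gained and 0 lost at any time, against 5.27% gained and 15.3% lost of 12139 overall. The 10 kb limit gave 24 merged regions. At 1 or more times 2 were gained and 5 lost, against 7.90% and 19.4% of 24406, so the members' shares lay near the background. At all 3 times 1 was gained and 3 were lost, against 0.918% and 7.42%. These counts are not test results and carry no p-value. Without H4ac 240 min B, 2 were called gained up to 100 kb instead of 0.

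For Pol II, 5 merged regions up to 100 kb gave 0 gained and 1 lost, against 19.9% and 50.9% of 5971. Narrow regions up to 10 kb numbered 16 after merging and gave 1 gained and 5 lost, against 23.4% and 42.6% of 9092. The 5 lost ones were 2 at Relb at 120 min, 1 at Rela at 240 and 360 min, 1 at Rela at 360 min and 1 at Nfkb2 at 360 min. All 5 losses occurred in lists that instead held regions wider than 10 kb there.

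**Figure D4:**
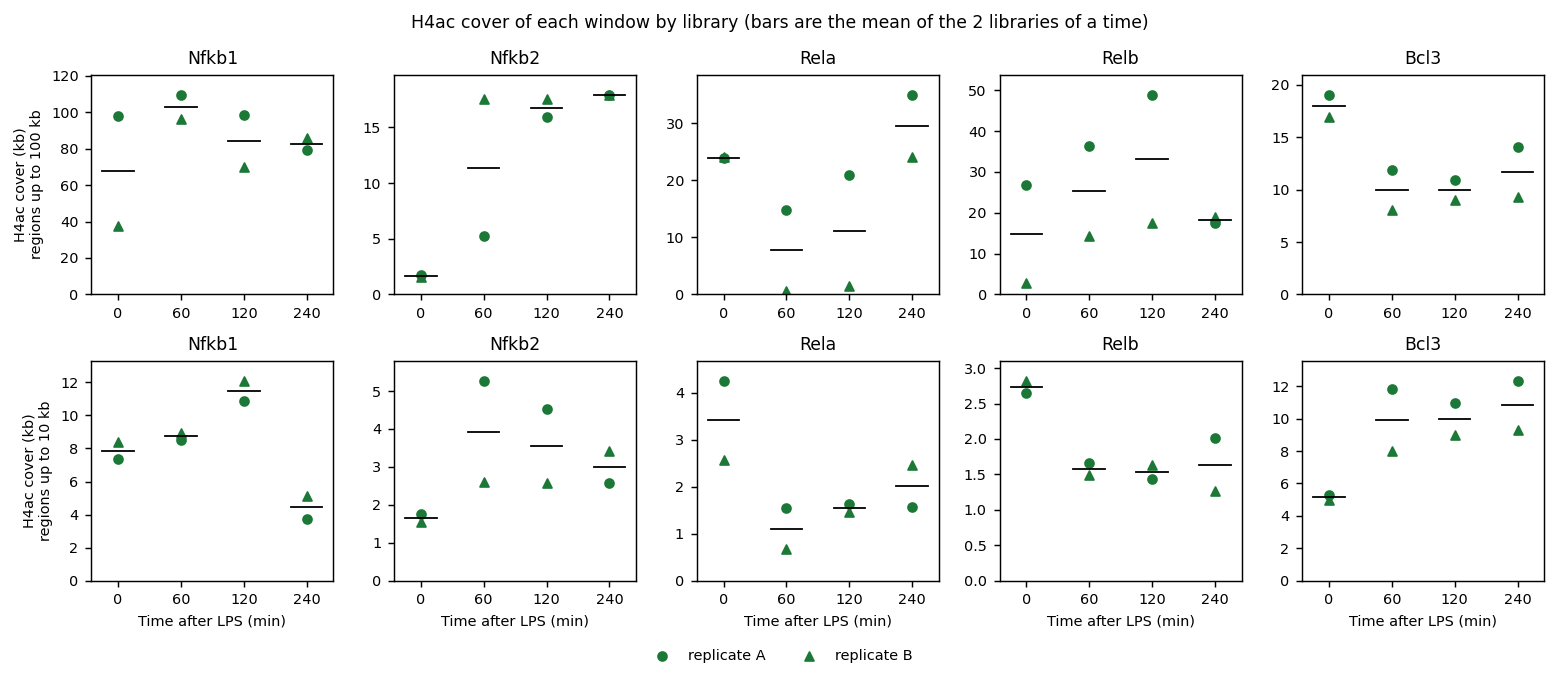
H4ac cover of each gene window in kb (y axes) by time after LPS in min (x axes) in 8 libraries, with regions up to 100 kb above and up to 10 kb below, circles and triangles for letters A and B and bars for the mean of 2 libraries. At Bcl3 the unstimulated libraries are highest up to 100 kb and lowest up to 10 kb, and at Nfkb2 they are lowest under both limits.

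No cover test passed 0.05, and none could. There were 10 such tests up to 100 kb, with smallest possible exact p-values of 0.0714 for H4ac and 0.0571 for p50. How often every LPS cover or place in a list lies beyond both unstimulated ones elsewhere in the genome was not determined. For H4ac at Nfkb1, cover was 97.99 and 37.78 kb without LPS and 69.91 to 109.6 kb with LPS (89.8 ± 14.4 against 67.9 ± 42.6 kb, exact permutation p = 0.357). Without unstimulated B that difference of 21.9 kb turned to -8.21 kb. For p50, LPS A covered 24.88 kb of the Nfkb2 window because of a 61.43 kb region, and without LPS A the Nfkb2 difference of 4.55 kb turned to -1.63 kb. At Nfkb1 the p50 regions covered 0.1, 0 and 0 kb without LPS and 0.39, 0.24, 2.06 and 0 kb with LPS (exact two-sided permutation p = 0.229).

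**Figure D5:**
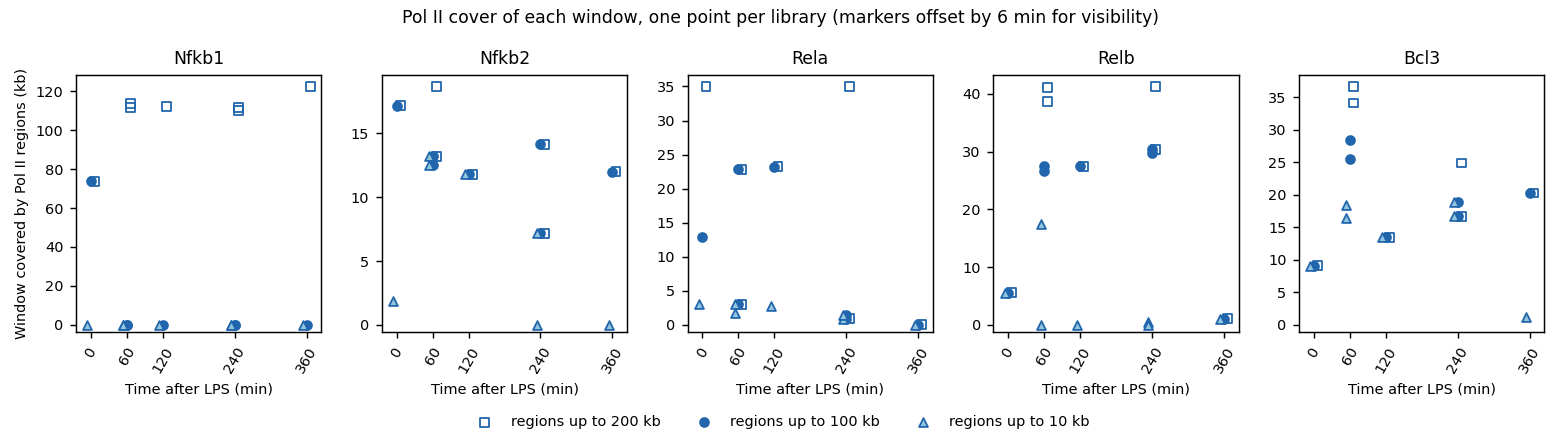
Pol II cover of each gene window in kb (y axes) by time after LPS in min (x axes), 1 marker per library and width limit, with squares for regions up to 200 kb, filled circles up to 100 kb and triangles up to 10 kb. At Nfkb1 the LPS libraries lie above the unstimulated one with the 200 kb limit and at 0 with the 100 kb limit, Relb stands at 26.55 to 30.4 kb from 60 to 240 min up to 100 kb and at 1.05 kb at 360 min, and Bcl3 lies above its unstimulated 9.10 kb up to 100 kb but at 1.19 kb at 360 min up to 10 kb.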

How the data were processed

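Each of 35 libraries had 1 deposited list of regions with no header line. The value used is the score per region, deposited by the authors, used here for its order inside 1 list alone. Genome build mm9 is named in the submitters' processing notes. Not given in the sources used here are the aligner and the way regions were called. Groups and times came from the labels.

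Cover is the union, in kb, of regions up to 100 kb inside a window. Cover with and without LPS was tested with an exact two-sided permutation of the libraries (SciPy 1.17.1, Python 3.11.15) for H4ac and p50. The permutation and the cover were checked on small fixed examples, and the gained and lost calls on simulated lists. Pol II and H3K27me3 had 1 unstimulated library and no test. Regions of a target were merged where they overlapped by at least 1 bp. The named features were the 5 genes, every p50 site in their windows and every merged region called gained or lost. Members and lists were chosen with earlier results of these data known. Read depth is unknown, so no interval is given. Alternatives covered width limits, score, list length, window size, overlap, replicate block and single libraries. No mm9 annotation was used, so exon and intron positions and other pathway genes were not analysed here.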

Additional observations from a re-analysis of the deposited data

Results flagged for a closer look

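In the 4 p50 libraries with LPS, LPS A lay far from LPS B, C and D in 2 of 5 windows examined for this. It covered 24.88 kb of the Nfkb2 window, where LPS B, C and D covered 0.32, 0.25 and 0 kb, and 0.25 kb of the Rela window, where they covered 0 kb. Each gap to the nearest library, as a share of the range (0.987 and 1), exceeded Dixon's 95% critical value for 4 samples. At Rela the share is 1 by construction, since only LPS A listed a region there. The value marks about 1 in 20 groups of normally distributed values. These covers, several of them 0 kb, are not such values, so that rate does not apply to them. With regions up to 10 kb, H4ac cover of Nfkb1 was above the unstimulated library of the same letter at 60 and 120 min in both letters and below it at 240 min in both. The mean differences were 0.89 kb at 60 min, 3.62 kb at 120 min and -3.42 kb at 240 min. This difference between times was not tested. Up to 100 kb, no gene showed opposite directions at 2 times in both letters.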

How the results depend on the processing

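Differences are LPS minus unstimulated cover in kb, by setting. Of 132 values under other settings, 82 were kept, 28 moved and 22 reversed. Of 135 values with 1 library left out these were 123, 6 and 6. For H4ac and p50 cover, kept means the same direction and side of the threshold. For Pol II cover it means the same direction and a move no larger than the spread between libraries of the same time. Counts of regions or pairs were kept if equal or close by their ratio. No alternative brought a test past 0.05, and none could with these numbers of libraries. For H4ac and p50 cover the side of the threshold was therefore fixed in advance, and only the direction could change.

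With regions up to 10 kb, H4ac was -1.16 at Relb and 5.11 at Bcl3, p50 was -1.63 at Nfkb2, and Pol II was 0 at Nfkb1, 5.57 at Nfkb2, -2.38 at Relb and 5.08 at Bcl3. Gained and lost regions numbered 2 and 5 for H4ac, 1 and 5 for Pol II, and 1 pair of library and gene held H3K27me3. With regions up to 1 kb, H4ac was -0.602 at Nfkb1 and -0.328 at Relb, and Pol II was 0 at Nfkb1, 0.0767 at Nfkb2, 0.298 at Relb and -0.025 at Bcl3. Pol II then had 5 gained and 3 lost regions, and H3K27me3 had 0 pairs. With every width, H4ac was -0.0587 at Nfkb2, p50 was -11.5 at Nfkb1, and Pol II was 40.4 at Nfkb1, -4.83 at Relb and 2.76 at Bcl3. There were then 0 gained p50 regions, 0 lost Pol II regions and 20 H3K27me3 pairs. With regions up to 200 kb, added after seeing the data, Pol II was 39.9 at Nfkb1, -20.8 at Rela, 24.4 at Relb and 15.2 at Bcl3.

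In the better-scored 50% of each list, H4ac was 3.88 at Rela, p50 was -0.0158 at Relb, and Pol II was 9.74 at Nfkb2 and 5.50 at Bcl3. With lists of equal length, p50 was -1.68 at Nfkb2, -0.0158 at Relb and -0.747 at Bcl3, and Pol II was 11.2 at Nfkb2, 23.8 at Relb and 14.3 at Bcl3. With windows extended by 20 kb, Pol II was -24.7 at Nfkb2 and 18.1 at Bcl3. With 50% of a merged region covered, 2 H4ac, 0 p50 and 3 Pol II regions were gained, and 2 Pol II regions were lost. Widths fix these values by construction where regions exceed a limit; for the other settings the cause was not tested.

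Leaving out single libraries, H4ac ranged from -8.21 to 52.0 at Nfkb1 and -1.20 to 22.8 at Relb, both negative without unstimulated B only, and gained H4ac regions from 0 to 2. The p50 values ranged from -1.63 to 6.67 at Nfkb2, negative without LPS A only, and from -0.59 to 0.487 at Bcl3, negative without unstimulated D, LPS A or LPS B. Pol II at Relb ranged from 16.9 to 22.8. Leaving out the unstimulated Pol II library gives no value. Over merged regions, deviations of same-letter p50 libraries correlated at 0.0639 (A), 0.0192 (C) and 0.227 (D). Between different letters these correlations were -0.141 to 0.0562. Letters A and D thus lay above every different-letter value, and letter C did not. With letter as a replicate block, p50 was 0.783 at Nfkb1, 6.56 at Nfkb2, 0.0833 at Rela, 0.01 at Relb and -0.59 at Bcl3, and H4ac was unchanged at all 5 genes (exact permutation p 0.125 to 0.5). The smallest p the block allows is 0.125 for H4ac and 0.25 for p50. Unknown depth limits every statement about a region that is not listed.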
